A study of Mus musculus with 34 samples.

Results

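The aminoacyl-tRNA synthetases are the enzymes that load each transfer RNA with its amino acid, and this account follows the transcripts of 37 of them in the dorsal hippocampus of mice 1 h after spatial object recognition (SOR) training. The 37 genes were taken from the bulk RNA-seq count table of 54532 genes by their GENCODE M21 symbols, and they comprise 21 cytosolic and 16 mitochondrial enzymes. The symbol Mars1 stands for the gene listed as Mars in that annotation. All 37 passed the filter on low counts. Pars2 was set against the other enzymes, and it was chosen by its own lower value after SOR in these same 8 libraries. Its fold change, interval and call therefore describe the values it was chosen on and are no evidence for it, and the fitted values of the other members, from the same contrast, are given as a description too.

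The bulk RNA-seq part of the series held 8 of its 34 samples, 4 homecage and 4 SOR, all from male C57BL/6J mice, 2 to 3 months old by the study's methods, with no transgene, virus or drug named. SOR-trained mice were habituated to an open field and then explored it in repeated sessions with objects at fixed positions, and they were euthanized 1 h after the last session. Homecage mice stayed in their cages and were euthanized at the same time of day, so the groups differ in exposure to the arena, locomotion and novelty as well as in learning. The whole dorsal hippocampus was taken, which mixes neurons, glia, vessels and whatever adjoining tissue came with the dissection.

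Each amino acid has its own synthetase, and in most cases there are separate enzymes for the cytosol and for the mitochondrion, both encoded in the nucleus. Mitochondrial synthetases are imported and charge the transfer RNAs that the mitochondrial genome encodes, which are used to make a few subunits of the respiratory chain. Gars and Kars each encode both forms of the glycyl and lysyl enzyme, mitochondrial glutaminyl-tRNA is made by an amidotransferase, and Eprs encodes a fused cytosolic enzyme for glutamate and proline. Several cytosolic synthetase genes are known targets of the transcription factor Atf4, which answers amino acid shortage and endoplasmic reticulum (ER) stress through a C/EBP-ATF response element.

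The letters of one form of that element, TGATGNAAN or its reverse complement NTTNCATCA, were looked for in windows from 250 bases before to 50 bases after the annotated gene start (RefSeq, GRCm38.p6). Windows were given for 28 members. They were 29 in number because Aars2 had a pair of them, and 5 of the 29 held the letters (17.2%), against 1299 of 32851 windows of all genes (3.95%). All 5 belonged to cytosolic enzymes, which had 14 windows. None of the 15 mitochondrial windows held them. For each of these genes the match nearest to the gene start is shown, because the matches group the cytosolic alanyl, glycyl, isoleucyl, threonyl and tyrosyl enzymes by a feature that the choice of members did not use. Each line gives the strand of the gene, 5′ to 3′, with the match in capitals.
Aars, chr8:111033840-111033868, plus strand: agcgggtcacTTTTCATCAgagcgctctg
Gars, chr6:55037960-55037988, plus strand: tggctgcgctATTTCATCAtgcaccgggc
Iars, chr13:49682126-49682154, plus strand: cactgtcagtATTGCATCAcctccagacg
Tars, chr15:11399656-11399684, minus strand: caggagtcccGTTGCATCAgctggttagc
Yars, chr4:129189896-129189924, plus strand: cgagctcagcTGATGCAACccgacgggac
A match is a description of the letters and not a mapped binding site. No window was given for Cars, Hars, Hars2, Lars, Nars, Pars2, Rars, Vars and Wars.

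The libraries held 51406011 to 81525977 estimated counts each. Levels are given as CPM, the count scaled by library size with upper-quartile factors. Of 22018 genes tested, 33 were called higher after SOR (0.15%) and 5 lower (0.0227%), where a call needed a change of more than 1.4-fold and an adjusted p under 0.05 by edgeR's quasi-likelihood test with Benjamini-Hochberg adjustment. Of 10 immediate early genes, which neurons switch on within minutes of activity, 9 rose. Arc, which acts at active synapses, rose by 1.42 ± 0.06 on the log2 scale (SE, n = 4 per group, edgeR adjusted p = 8.27e-06), while Npas4 was at 2.25 to 4.96 CPM in homecage and 2.06 to 3.02 CPM in SOR. The hippocampal neuron markers were present in every library, with a summed level of 2341 to 2725 CPM in homecage and 2447 to 2838 CPM in SOR. The 8 choroid plexus markers differed widely between libraries of both groups, from 30.2 to 1126 CPM in sum in homecage and from 43.9 to 4113 CPM in SOR, with the highest sum in SOR replicate 1.

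Pars2 encodes the mitochondrial prolyl-tRNA synthetase. The gene lies at chr4:106651069-106655282 on the plus strand (GRCm38), its transcript has 2 exons, and no other annotated gene of the table overlaps it. Its level was 8.97, 7.005, 8.46 and 7.41 CPM in homecage replicates 1 to 4, and 4.96, 4.27, 4.51 and 5.42 CPM in SOR replicates 1 to 4. Every SOR mouse lay below every homecage mouse, and the highest SOR value was 0.774 of the lowest homecage value. These levels rested on 474 to 590 estimated counts in homecage and 237 to 369 in SOR. The fitted log2 fold change was -0.73 ± 0.12 (SE, n = 4 per group), with a 95% interval from -0.99 to -0.48, which leaves the level at 60.2% of homecage. Pars2 was 1 of the 5 genes called lower, which is the value it was chosen for. That call was lost in 7 of the 8 fits that left out 1 mouse and when the replicate number entered as a block. It held when SOR replicate 4 was left out.

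The same Pars2 values can be set against the other enzymes of each library, whose levels were nearly even. Pars2 made up 2.46% to 3.18% of the summed CPM of the mitochondrial enzymes in homecage and 1.53% to 1.97% in SOR. The other 15 mitochondrial enzymes summed to 280 ± 6.50 CPM in homecage and 272 ± 4.03 CPM in SOR (SD, n = 4 each). For every 1000 CPM of Eprs, the cytosolic enzyme that charges proline, there were 44.1 to 57.2 CPM of Pars2 in homecage and 26.9 to 34.3 CPM in SOR. Eprs itself was at 157, 159, 159 and 164 CPM in homecage and 153, 159, 151 and 158 CPM in SOR. Its groups overlapped, with a log2 fold change of -0.04 and an interval from -0.12 to 0.04. The fitted difference of the cytosolic proline enzyme was thus close to 0, whereas that of the mitochondrial one was -0.73.

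The genes on either side of Pars2 were measured for comparison. Ttc4, a co-chaperone gene whose span lies 6973 bases beyond Pars2 on the opposite strand, was at 43.3 to 48.6 CPM in homecage and 40.7 to 42.4 CPM in SOR. Its groups did not overlap either, but its log2 fold change was -0.15 ± 0.05 (SE, n = 4 per group) and missed the threshold (edgeR adjusted p = 0.31). Ttc22, on the other side, was scarce at 0.535 to 1.11 CPM in homecage and 0.414 to 0.583 CPM in SOR, and its groups overlapped. Its log2 fold change was -0.60 ± 0.27 (SE, n = 4 per group) and missed the threshold too (edgeR adjusted p = 0.49).

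**Figure D1:**
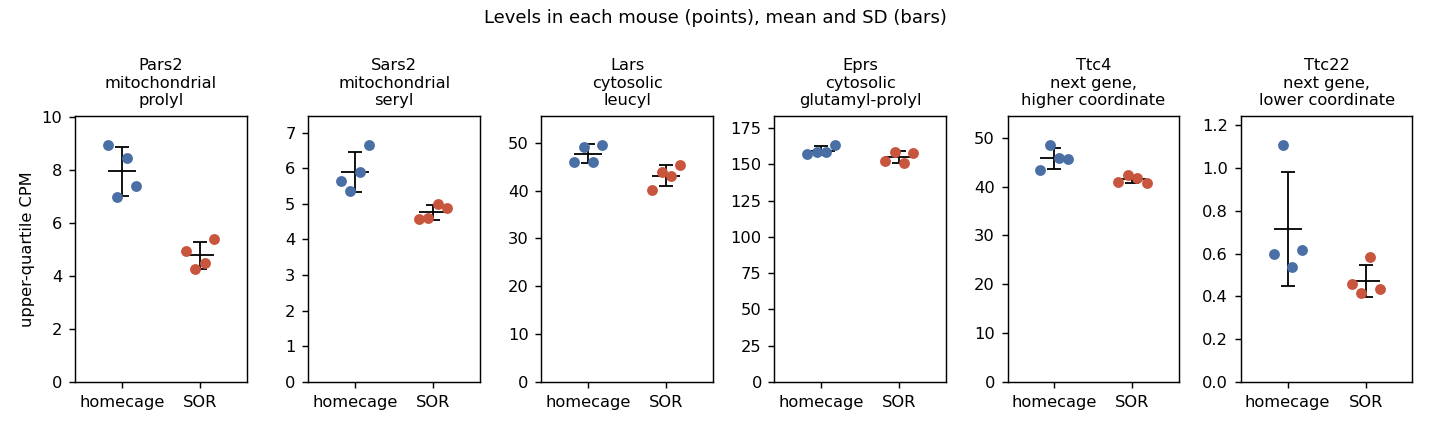
Upper-quartile CPM of 6 genes (vertical axes start at 0 and differ in scale) in 4 homecage and 4 SOR mice; points are mice, bars the mean and SD. Pars2, Sars2, Lars and Ttc4 show no overlap between groups, and the gap is widest for Pars2, at 7.005 to 8.97 CPM against 4.27 to 5.42 CPM.

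In the other 36 enzymes the differences were small. Their log2 fold changes ran from -0.31 for Sars2 to 0.19 for Vars, with a median of -0.04, beside a median of -0.02 over all genes tested. Of the 36, 25 had a log2 fold change within 0.1 of 0, and 26 lay below 0 (72.2%, against 56.2% of all genes). With TMM or RLE scaling, other ways to set the library factors, 24 lay below 0, beside 49.8% and 49.3% of all genes. None of them reached an adjusted p under 0.05, beside 0.309% of all genes, and 4 had an unadjusted p under 0.05 (11.1%), close to the 10.1% of all genes. The 95% interval lay within a fold change of 1.4 in both directions for 34 of the 36 (94.4%, against 58.9% of all genes). The intervals that reached beyond it were those of Vars, from -0.29 to 0.67, and Sars2, from -0.53 to -0.09. The median biological coefficient of variation between mice was 7.46% in the 36 enzymes and 13.4% over all genes. The 36 enzymes were also more abundant, with a median level of 34.2 CPM against 6.92 CPM over all genes. The part of this level in their narrower intervals and lower variation was not tested.

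The cytosolic and the mitochondrial enzymes had similar medians. The median log2 fold change was -0.04 in the 21 cytosolic genes and -0.05 in the 16 mitochondrial genes. Of the cytosolic genes 17 lay below 0 and 4 above, and of the mitochondrial genes 10 lay below and 6 above, which became 16 and 9 genes below 0 with TMM scaling. The summed cytosolic level was 5.20 to 5.43 times the summed level of the mitochondrial enzymes without Pars2 in homecage libraries and 5.25 to 5.40 times in SOR libraries, so that ratio overlapped between groups.

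**Figure D2:**
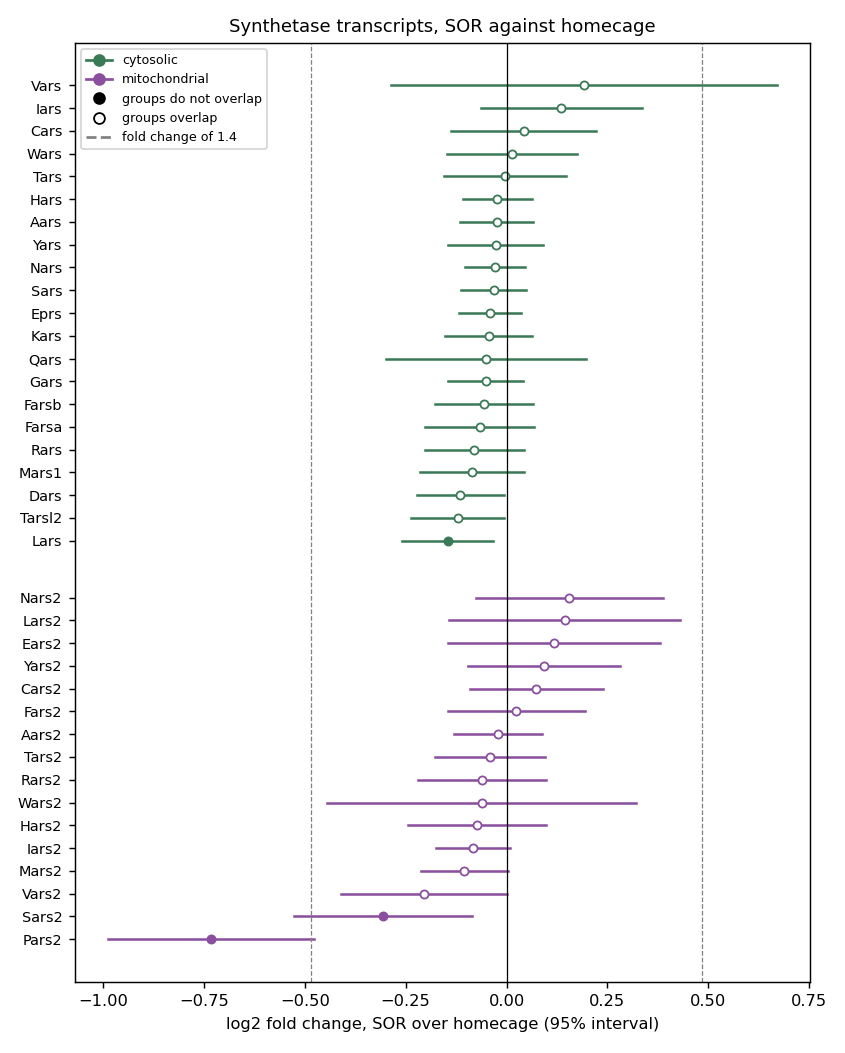
Log2 fold change of each enzyme, SOR over homecage, with its 95% interval; filled points mark genes whose groups do not overlap and dashed lines a fold change of 1.4. Pars2 stands at -0.73, and the other 36 lie between -0.31 and 0.19.

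In 3 of the 37 enzymes, Pars2, Sars2 and Lars, every SOR mouse lay below every homecage mouse (3.96% of all genes tested). Without Pars2, which was chosen for being lower, it was 2 of 36 (5.56%). In none of the 37 did every SOR mouse lie above every homecage mouse (2.98% of all genes). Sars2, the mitochondrial seryl-tRNA synthetase, was the member nearest to Pars2 in size of difference. It was at 5.65, 5.38, 5.89 and 6.67 CPM in homecage and at 4.58, 4.59, 5.01 and 4.89 CPM in SOR. The groups were apart by a small margin, and the fitted level after SOR was 80.8% of homecage. Lars, the cytosolic leucyl-tRNA synthetase and a member of the multisynthetase complex, was at 46.0, 49.1, 45.9 and 49.6 CPM in homecage and at 40.1, 43.8, 43.0 and 45.4 CPM in SOR. Its log2 fold change was -0.15, and its separation of groups was lost with TMM and RLE scaling, which left Pars2 and Sars2.

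The 8 enzymes of the multisynthetase complex (Dars, Eprs, Iars, Kars, Lars, Mars1, Qars and Rars), which is a cytosolic assembly of synthetases, had log2 fold changes with a median of -0.07, and none reached an adjusted p under 0.05. Lars, at -0.15, and Iars, at 0.14, marked the ends of their range. The scaffold genes of the complex, Aimp1, Aimp2 and Eef1e1, ran from -0.14 to 0.05. The 5 cytosolic enzymes with the response element letters centred at a log2 fold change of -0.02, within -0.05 to 0.14, and the 23 members whose windows lacked them had a median of -0.05.

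The coefficient of variation in the SOR group was highest in Vars, Wars2 and Lars2. Vars, the cytosolic valyl-tRNA synthetase, was at 15.6, 20.7, 14.1 and 17.0 CPM in homecage and at 11.5, 24.1, 17.0 and 24.7 CPM in SOR, a coefficient of variation of 32.5% in the SOR group. Wars2, the mitochondrial tryptophanyl enzyme, was at 6.70 to 12.3 CPM in SOR with the highest value in replicate 2. Lars2, the mitochondrial leucyl enzyme, was at 14.2, 13.7, 14.3 and 15.4 CPM in homecage and at 14.3, 17.4, 19.7 and 12.2 CPM in SOR. At the other end Iars2, the mitochondrial isoleucyl enzyme, had the lowest coefficient of variation in SOR, at 2.06%. Nars, the cytosolic asparaginyl enzyme, had the lowest in homecage, at 1.59%, and was at 2.23% in SOR.

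**Figure D3:**
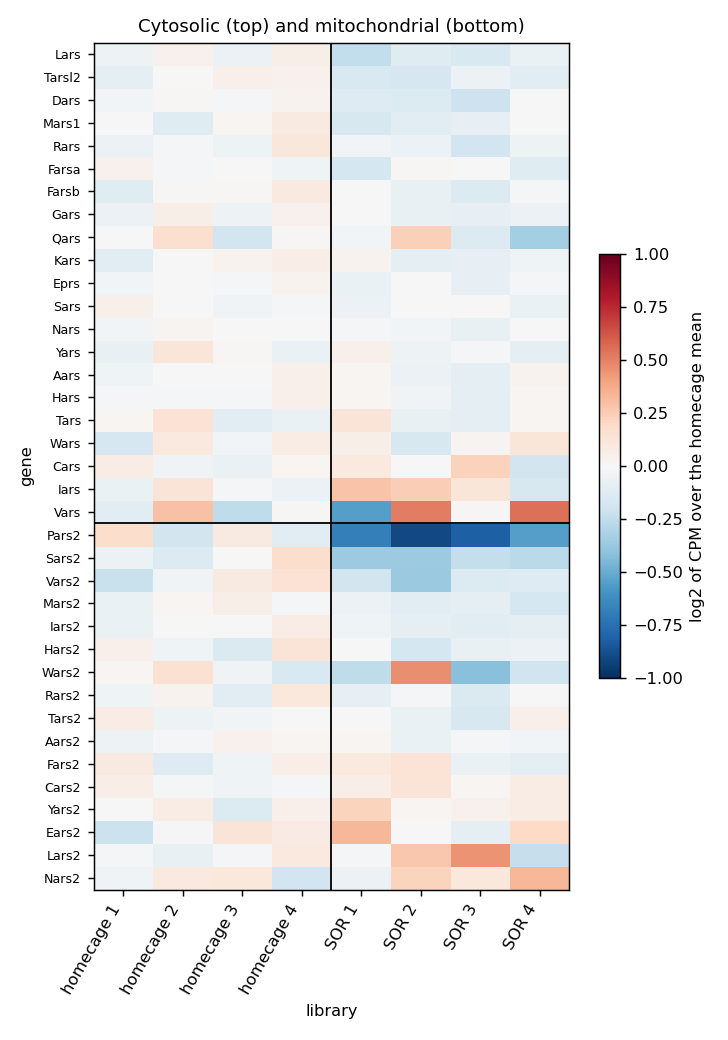
Heat map of the log2 ratio of each library's CPM to the mean of the homecage libraries, for 21 cytosolic (above the line) and 16 mitochondrial enzymes. Pars2 is low in all 4 SOR libraries, whereas Vars, Wars2 and Lars2 go both ways among SOR mice.

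SOR replicate 1 was highest in markers of choroid plexus, an epithelium rich in secretory proteins, and in ER chaperones. A link between these was not tested. Hspa5, the main ER chaperone, was at 324, 254, 238 and 247 CPM in homecage and at 609, 358, 348 and 332 CPM in SOR. The 3 enzymes in which this library stood farthest above the other SOR libraries were Yars2, Ears2 and Tars. Yars2, the mitochondrial tyrosyl enzyme, was at 8.52, 8.998, 7.76 and 8.82 CPM in homecage and at 9.94, 8.63, 8.80 and 8.99 CPM in SOR. Ears2, the mitochondrial glutamyl enzyme, was at 6.30, 7.21, 8.01 and 7.77 CPM in homecage and at 9.24, 7.30, 6.85 and 8.43 CPM in SOR. Tars, the cytosolic threonyl enzyme, was at 44.0, 48.2, 40.2 and 41.5 CPM in homecage and at 47.4, 41.2, 40.8 and 44.0 CPM in SOR. In all 3 the groups overlapped, and SOR replicate 1 was at most 1.10 times the next SOR library.

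Cell type markers moved with some libraries, and fewer cells of a type and less RNA per cell cannot be told apart in bulk tissue. The 8 oligodendrocyte markers had log2 fold changes from -0.50 to -0.05, with none past the threshold and 1, Opalin, entirely lower after SOR. They summed to 5428 to 5916 CPM in homecage and 4436 to 5827 CPM in SOR. In SOR replicate 4, whose oligodendrocyte sum of 5827 CPM lay inside the homecage range, Pars2 was at 5.42 CPM. The choroid plexus sum was low in homecage replicates 2 and 3 and in SOR replicate 4, and in these Pars2 was at 7.005, 8.46 and 5.42 CPM. The part of either cell type in the values of Pars2, Sars2 and Lars was not tested. The 6 thalamus markers summed to 53.9 to 95.7 CPM in homecage and 46.5 to 78.7 CPM in SOR, and the 5 red blood cell markers to 98.6 to 127 and 115 to 184 CPM.

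Levels between genes were compared per kilobase of merged exons in homecage mice. Among cytosolic enzymes the median was 10.5 CPM per kb, and among mitochondrial enzymes 2.79 CPM per kb. Merged exons include retained introns and understate some genes, so levels per kilobase of the longest coding transcript are given too, with medians of 20.8 and 3.64 CPM per kb. Nars was highest by either length, at 41.8 ± 0.67 CPM per kb of merged exons (SD, n = 4), followed by Hars, the histidyl enzyme, at 32.3 ± 0.73. By coding length Gars, at 42.1, took the place behind Nars. Vars, at 3.01 ± 0.50, and Cars, the cysteinyl enzyme, at 4.61 ± 0.20 CPM per kb, were lowest among cytosolic enzymes by both lengths. Eprs moved most among the cytosolic enzymes, from 8.81 per kb of merged exons to 32.5 per kb of coding transcript.

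Among mitochondrial enzymes Iars2, the isoleucyl enzyme, was highest by both lengths, at 7.27 ± 0.29 CPM per kb of merged exons, and Aars2, the alanyl enzyme, followed at 5.55 ± 0.16. Cars2 at 1.13 ± 0.04 and Lars2 at 1.30 ± 0.07 CPM per kb were lowest by merged exons, but Wars2 at 2.02 and Nars2 at 2.60 were lowest by coding length. Pars2, at 2.57 ± 0.29 CPM per kb in homecage and 1.55 ± 0.16 in SOR, was 10th of 16 in homecage by merged exons and 14th by coding length. Neighbours in these orders were often not apart. By coding length the ranges over all 8 libraries overlapped in 14 of 20 adjacent cytosolic pairs and in 12 of 15 adjacent mitochondrial pairs.

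The CPM values of these genes in each library show how even most of them were. Nars was at 179, 186, 182 and 183 CPM in homecage and 180, 178, 173 and 183 CPM in SOR. Hars was at 78.3, 78.1, 78.4 and 81.8 CPM in homecage and 80.0, 77.1, 74.4 and 80.2 CPM in SOR. Cars was at 32.0, 29.6, 29.0 and 30.8 CPM in homecage and 32.5, 30.2, 35.5 and 26.7 CPM in SOR. All 3 are cytosolic, and their groups overlapped. Iars2 was at 61.6, 64.2, 64.4 and 67.9 CPM in homecage and 62.7, 60.7, 59.7 and 60.7 CPM in SOR. Aars2 was at 25.5, 26.3, 27.2 and 26.8 CPM in homecage and 26.8, 25.3, 26.2 and 26.0 CPM in SOR. Cars2 was at 8.61, 8.10, 8.03 and 8.10 CPM in homecage and 8.61, 8.99, 8.34 and 8.62 CPM in SOR. These 3 mitochondrial enzymes also overlapped between groups, Cars2 by the level of homecage replicate 1.

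For 16 amino acids the family holds both a cytosolic and a mitochondrial enzyme. Per kilobase of merged exons the cytosolic transcript was more abundant on average in homecage in all 16 pairs, with a median ratio of 3.73. By coding length it was so in 15 of 16, with a median of 4.05, and the exception was isoleucine at 0.814. Among homecage mice the valine ratio lay on both sides of 1. It ran from 0.822 to 1.31 by merged exons and from 0.903 to 1.44 by coding length. By coding length asparagine had the widest ratio, 25.7 ± 2.54 (SD, n = 4), and proline, at 12.6 ± 1.57, and serine, at 12.5 ± 1.31, followed with overlapping ranges. The proline ratio depended on the length used: by merged exons it was 3.46 ± 0.43 in homecage and 5.58 ± 0.60 in SOR, and by coding length 12.6 in homecage and 20.3 ± 2.20 in SOR. The ratio did not overlap between groups for proline and serine, the pairs that hold Pars2 and Sars2, and overlapped for the other 14. These 2 ratios carry the Pars2 and Sars2 values given above and are no further result, and Pars2 was chosen for being lower. By coding length valine, phenylalanine and threonine had the lowest homecage ratios above 1, at 1.16, 1.25 and 1.46.

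**Figure D4:**
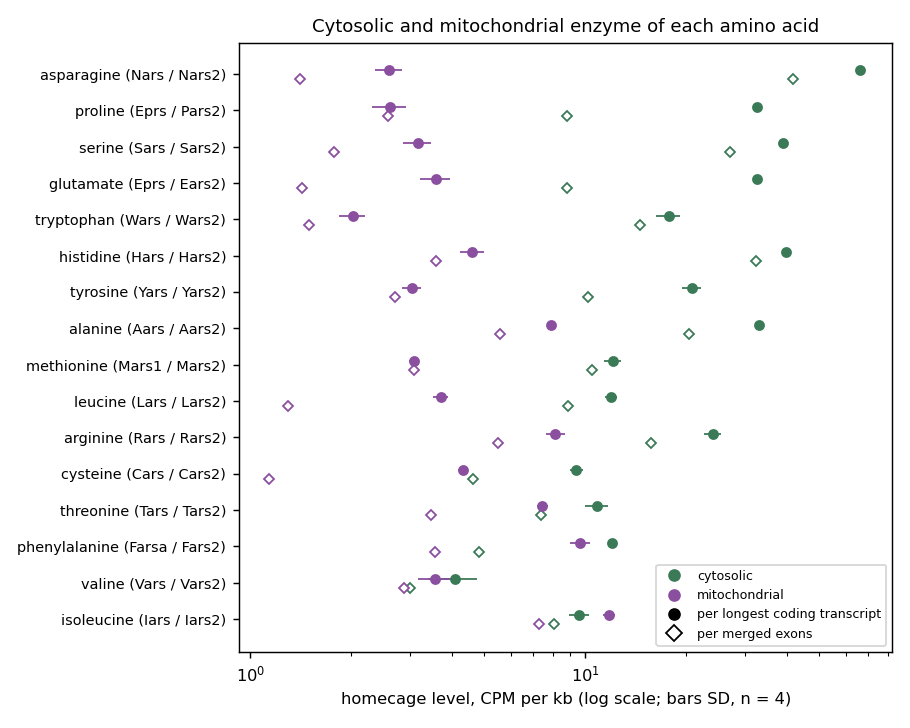
Homecage level of the cytosolic and mitochondrial enzyme of each of 16 amino acids in CPM per kb (log axis), per longest coding transcript (circles, bars SD, n = 4) and per merged exons (diamonds). By coding length the homecage mean is higher for the cytosolic enzyme in 15 of 16 pairs. The cytosolic to mitochondrial ratio ranges from 0.814 for isoleucine to 25.7 for asparagine. The phenylalanine pair uses Farsa, which encodes only a subunit of the cytosolic enzyme.

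The genes that work beside the mitochondrial synthetases were close to 0 as a group. Of 17 genes for processing and modifying mitochondrial transfer RNA, none reached an adjusted p under 0.05, and the median log2 fold change was -0.05. Trmt61b, a transfer RNA methyltransferase, was at 5.18 to 6.56 CPM in homecage and 6.58 to 8.20 CPM in SOR, entirely higher. Of 10 mitochondrial translation factors none passed either, with a median of -0.03. Guf1, a mitochondrial elongation factor of the LepA type, was at 38.8 to 42.2 CPM in homecage and 33.7 to 36.4 CPM in SOR, entirely lower, with a log2 fold change of -0.22 ± 0.05 (edgeR adjusted p = 0.12). The 3 subunits of the glutaminyl-tRNA amidotransferase ran from -0.33 to 0.06. The 9 cytosolic elongation factors and their modifiers had a median of -0.004, and the 13 genes of transfer RNA editing and related functions a median of -0.05, with none past the threshold in either.

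Proline supply was described by 8 genes of its synthesis, breakdown and transport, none of which passed the threshold. Prodh, which breaks proline down in mitochondria, was at 22.0 to 23.9 CPM in homecage and 24.5 to 27.5 CPM in SOR, entirely higher, with a log2 fold change of 0.16 ± 0.06 (edgeR adjusted p = 0.4). The group's median was 0.07.

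The genes of the amino acid response, which share regulators with the cytosolic synthetases, were examined next. The list was planned with 23 genes. Ddit3 was not matched to a single row by its symbol and is left out. A gene of that symbol, which overlaps Mars1, was measured at a mean of 15.6 CPM over all libraries, and its difference is not given here. Of the other 22 genes 1 rose, Atf3, a stress-induced transcription factor also induced by neuronal activity. It was at 0.563, 0.744, 0.678 and 0.628 CPM in homecage and 1.398, 1.42, 1.47 and 1.61 CPM in SOR, a log2 fold change of 1.17 ± 0.15 (edgeR adjusted p = 0.00971). Atf4 was at 97.0, 103, 106 and 97.8 CPM in homecage and 131, 106, 113 and 117 CPM in SOR. Its groups did not overlap, but its log2 fold change of 0.21 ± 0.06 missed the threshold (edgeR adjusted p = 0.25). Slc7a5, a transporter of large neutral amino acids, Ddit4, an inhibitor of mTOR signalling, and Stc2, a secreted glycoprotein, were also entirely higher after SOR, with log2 fold changes of 0.28, 0.42 and 0.48 and no adjusted p under 0.05. The list's median was 0.02.

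Among 9 genes of eIF2 phosphorylation none passed the threshold. Eif2ak3, the ER stress kinase PERK, was at 22.8 to 24.0 CPM in homecage and 24.1 to 27.3 CPM in SOR. Ppp1r15b, a subunit of the phosphatase that reverses the kinases, was at 48.2 to 52.1 CPM in homecage and 55.0 to 58.7 CPM in SOR. Both were entirely higher. The 14 ER chaperone and ER stress genes had a median log2 fold change of 0.41, which was 0.22 without SOR replicate 1, and none passed the threshold. Hspa5, Pdia6, Calr, Manf, Herpud1 and Xbp1 were entirely higher after SOR. Hspa5 had a log2 fold change of 0.63 ± 0.18 (edgeR adjusted p = 0.25), and 0.38 without that library. The cytosolic synthetases had a median of -0.05 without it.

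**Figure D5:**
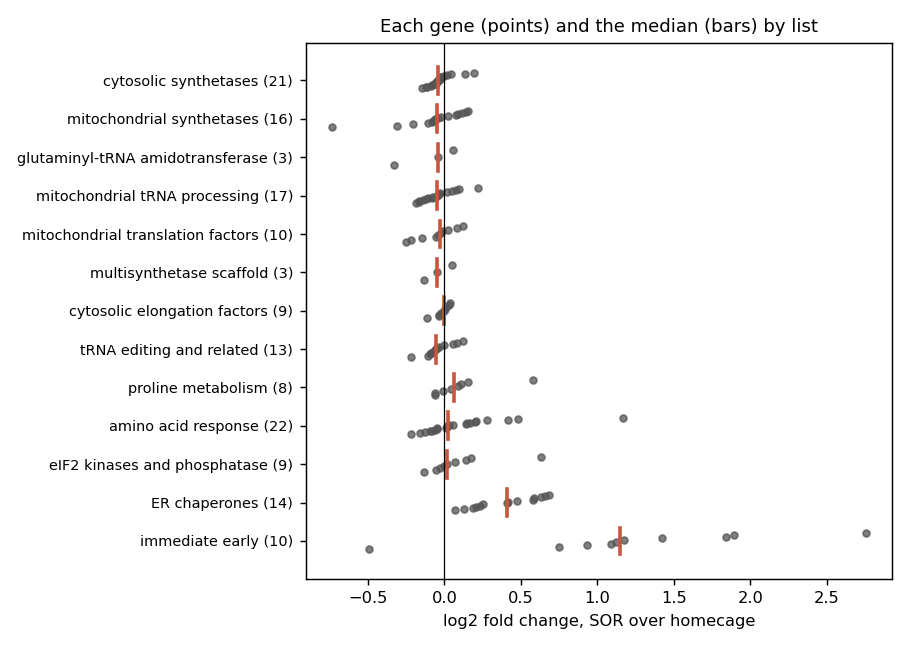
Log2 fold change, SOR over homecage, of each gene tested (points) with the median (bars) for the synthetases and 11 companion lists; the number of genes stands in brackets. The synthetase and translation lists centre near 0, the ER chaperones at 0.41 and the immediate early genes at 1.15.

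Some members share their position with other genes. In 11 of 37 the annotated span was overlapped by another gene of at least 1 CPM on average, and 17 had no overlap at all. Hars and Hars2 overlap on opposite strands, Mars1 overlaps Ddit3, Cars2 overlaps Naxd, Ears2 overlaps Ubfd1, and Fars2 spans Nrn1. Tarsl2 overlaps Tm2d3 on the same strand. Whether the counting used strand is not given in the sources used here, so the share of reads from such partners is uncertain. Pars2, Sars2, Vars and Eprs had no overlapping gene. Lars held a processed pseudogene at 0.0815 CPM.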

How the data were processed

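Dorsal hippocampi of 4 homecage and 4 SOR-trained mice were profiled by bulk RNA-seq. The other 26 samples of the series (spatial and single-nucleus assays) were not used here. The labels call the molecule polyA RNA, whereas the study's methods name a stranded total RNA kit with ribosomal RNA depletion. The authors aligned reads with STAR in the bcbio pipeline to mm10 and name featureCounts for counting, but the deposited values are estimated counts per gene, as tximport gives (52.6% of values not whole), with no normalization. The setting for strand is not given in the sources used here.

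After rounding, the table was reduced by filterByExpr, scaled by upper quartile and tested with edgeR 4.0.16 (quasi-likelihood F test, R 4.3.3) with Benjamini-Hochberg adjustment over 22018 genes. The fit was also run on simulated counts drawn with a single dispersion for all genes, unlike the data. The outcome of that run is not given here. A call needed more than a 1.4-fold change at an adjusted p under 0.05. Alternatives used limma 3.58.1, DESeq2 1.42.0, other scalings and filters, likelihood ratio tests with up to 3 RUVs factors, a replicate block and single samples left out. Gene records (54495 of 54532 IDs) and lengths came from GENCODE M21 and promoter windows from RefSeq. SDs measure the spread between mice, which the labels do not otherwise describe. SEs and intervals give the uncertainty of the fitted difference between groups. Replicates of a group differed by more than sampling noise in every pair (chi-square per gene 13.4 to 61.5).

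The members, companion lists and tests were chosen with earlier results of these data known. Values in each sample were given for Pars2, Eprs, members with an adjusted p under 0.05 or groups that do not overlap, the 2 highest and 2 lowest levels per length in each class, and up to 3 members with SOR replicate 1 farthest above the other SOR samples; Wars2 was named after its values were seen. Companion genes were named where they passed the threshold or their groups did not overlap, plus Hspa5, Atf4 and the neighbours of Pars2; Npas4 was named after its values were seen. A further promoter match is not reported here.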

Additional observations from a re-analysis of the deposited data

Results flagged for a closer look

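A sample far from the other 3 of its group was found in 2 of the 74 groups of 4 examined (37 enzymes in homecage and in SOR), and chance alone gives about 1 in 20 groups. Hars was at 81.8 CPM in homecage replicate 4 and at 78.1 to 78.4 CPM in the other homecage mice. Cars2 was at 8.61 CPM in homecage replicate 1 and at 8.03 to 8.10 CPM in the others. In both genes the homecage and SOR values overlapped.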

How the results depend on the processing

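The log2 fold change of Pars2 lay between -0.75 and -0.71 under 12 other fits and between -0.80 and -0.67 when single samples were left out. These refits use the libraries on which Pars2 was chosen and are no independent support. The number of synthetases called was 0 with the replicate block and 0 to 1 when single samples were left out. The labels do not state whether the replicate numbers pair the mice. Correlations of deviations ran from -0.104 to 0.173 for same-numbered mice and from -0.342 to 0.251 for the other pairs. A batch shared by same-numbered mice was not tested. The block left 30 genes called in place of 38. The count of genes called was 105 with the likelihood ratio test, 112 with DESeq2, 131, 191 and 203 with 1, 2 and 3 RUVs factors, and 68 with no fold threshold; leaving out single samples gave 22 to 38. The synthetases entirely below homecage numbered 3 to 8 when single samples were left out (8 without homecage replicate 1, 6 without SOR replicate 1). Groups with a sample fewer separate more readily. The share of all genes in those fits is not given here, so these counts are not read as a result about the enzymes. The median cytosolic to mitochondrial ratio was 3.99 with longest transcripts and 4.05 with longest coding transcripts, chosen after seeing the data, and 3.68 to 3.77 without single samples. Between 33 and 34 enzymes other than Pars2 kept an interval within 1.4-fold. Of 740 refitted values of members, 739 moved by less than their SE; 9 members changed sign in at least 1 fit. Scarce transcripts such as Ttc22 rest on few reads, which limits their precision.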
